A study of Mus musculus with 4 samples.

Results

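Cycling regulatory T cells of MC38 tumours treated with anti-PD-1 are described here across all genes. Members were chosen by the deposited values of 6 genes: a cell was taken when it came from the anti-PD-1 library, had at least 1 UMI (a counted molecule of RNA) of Cd3e, Foxp3, Cd4 and Mki67, and had a Cd4 value above both Cd8a and Cd8b1. There were 156 such cells among the 12562 cells of the library and the 13213 cells of the whole table. The same gate without Mki67 held 240 cells, so 396 cells passed the regulatory T cell gate, which is 3.15% of the library (exact 95% interval 2.85 to 3.47).

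Regulatory T cells are CD4 T cells that restrain other immune cells, and their identity is kept by the transcription factor Foxp3. In tumours many of them divide, sense IL-2 through the high-affinity receptor chain Il2ra, and carry Ctla4 and TNF-family receptors at the surface. Dividing cells of any kind switch on DNA replication genes before and during S phase and spindle genes before mitosis. Mki67 encodes Ki-67, a protein that coats mitotic chromosomes and is lost from resting cells.

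The tumours were grown from MC38 cells, a mouse colon carcinoma line, implanted orthotopically into C57BL/6 mice. The question of the series is whether Atractylenolide I, a plant sesquiterpenoid abbreviated ATT-I, makes tumours respond better to checkpoint blockade. There were 4 arms with 1 droplet library each, made by the 10x Genomics method from 5 pooled tumours taken 2 weeks after treatment began. The anti-PD-1 arm received the antibody 3 times a week for 5 doses, the ATT-I arm received 50 mg/kg daily, the combination arm received both, and the first arm, called vehicle here, is a vehicle control per the protocol but carries the entry No treatment. Vehicle gave 155 cells (median depth 16129 UMIs), anti-PD-1 gave 12562 (7148), ATT-I gave 297 (6828) and the combination gave 199 (23927). No arm has a replicate library, so no p-value is given. Intervals are exact 95% intervals that cover counting error only, and "higher" or "lower" gene counts use a 1.5-fold ratio (0.58 on the log2 scale) of mean levels.

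The members' depth ran from 2457 to 43303 UMIs with a median of 10271.5, against a median of 6212 in the non-cycling cells of the gate. Depth therefore differs along with the Mki67 cut. Values over a matched range of depth are given for the gene counts within the gate. Values after thinning every cell to the same depth are given for some genes and for the cycling share. The other ratios and the list counts are given without such values, so depth can enter them. A level below is a gene's UMIs per 10000 UMIs of the cell, averaged so that every cell has the same weight whatever its depth. The Mki67 rule is thin at its edge. Of the members, 70 had 1 Mki67 UMI, 14 had 2 and 72 had 3 or more, with a median of 2 and a highest count of 86. A Foxp3 count of 1 UMI was found in 51 members, a Cd8a or Cd8b1 UMI in 62, and a Cd4 count only 1 UMI above the higher Cd8 count in 86. Just outside the gate lay 150 cells that met every condition except Cd4 above Cd8. In 64 of them Cd4 tied with the higher Cd8 count, and in 86 it was lower. Their mean levels were 2.61 for Foxp3 and 3.13 for Cd8a, at a median depth of 12998 UMIs.

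The label was checked against its markers. The rule itself sets the Foxp3 and Mki67 levels, so they are described only. Foxp3 averaged 2.91 UMIs per 10000 (2.58 to 3.25) in the members, with 0.341 in the lowest cell, 2.19 in the median cell and 14.2 in the highest. The non-cycling cells averaged 3.64 (3.31 to 4.00), and 6.26% of cycling CD8 T cells had a Foxp3 UMI, at a mean level of 0.105. Mki67 averaged 5.32 in the members, and 0.535, 2.78 and 53.2 in the lowest, median and highest cell. Cycling CD8 T cells (2749 cells, with Cd8a and Cd8b1 but no Cd4) averaged 4.27 and cycling CD4 T cells without Foxp3 (247 cells) 3.92. Ikzf2 (Helios), Il2ra and Ctla4 did not enter the rule. In the members they averaged 11.1, 2.53 and 9.30, against 2.40, 0.207 and 1.29 in cycling CD8 T cells, so genes outside the gate bear out the name regulatory T cell. The word cycling holds for only some of the members, as the cell-cycle lists show.

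**Figure D1:**
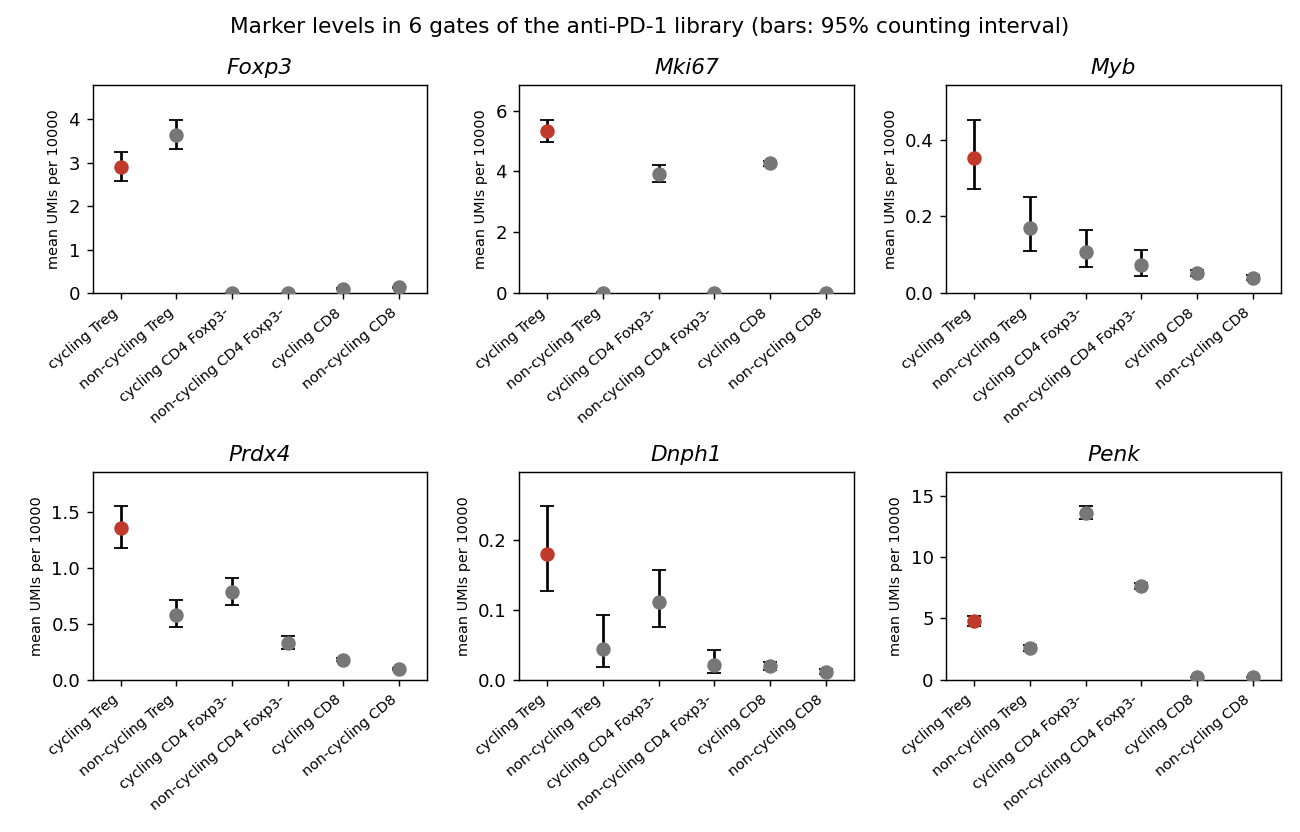
Mean UMIs per 10000 of 6 genes in 6 gates of the anti-PD-1 library, with exact 95% counting intervals and the cycling regulatory T cells in red. Myb and Prdx4 are highest in the cycling regulatory T cells (0.353 and 1.36), while Penk is highest in cycling CD4 T cells without Foxp3 (13.6).

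Cell-cycle genes were summed in each cell over 2 lists, one of 29 genes of the G1/S transition and DNA replication and one of 32 genes of G2 and mitosis. Summed G2/M levels in the members averaged 46.6 UMIs per 10000, with 0 in the lowest cell, 18.1 in the median cell and 184 in the highest. In the non-cycling cells they averaged 7.40, with a median of 6.55 and a highest cell at 35.2. The ranges overlap. Members with 1 Mki67 UMI had a median G2/M sum of 8.27, close to that of the non-cycling cells, and members with 3 or more had a median of 85.4. Median depth moved with this split, at 6907.5 UMIs in the cells with 1 Mki67 UMI and 16699 in those with 3 or more. For the G1/S list the medians were 7.91 with 1 UMI, 25.2 with 3 or more and 6.38 without Mki67. Cycling CD8 T cells split in the same manner, with mean G2/M sums of 10.6 at 1 Mki67 UMI and 85.9 at 3 or more. The means in the members were 11.6 and 86.5.

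**Figure D2:**
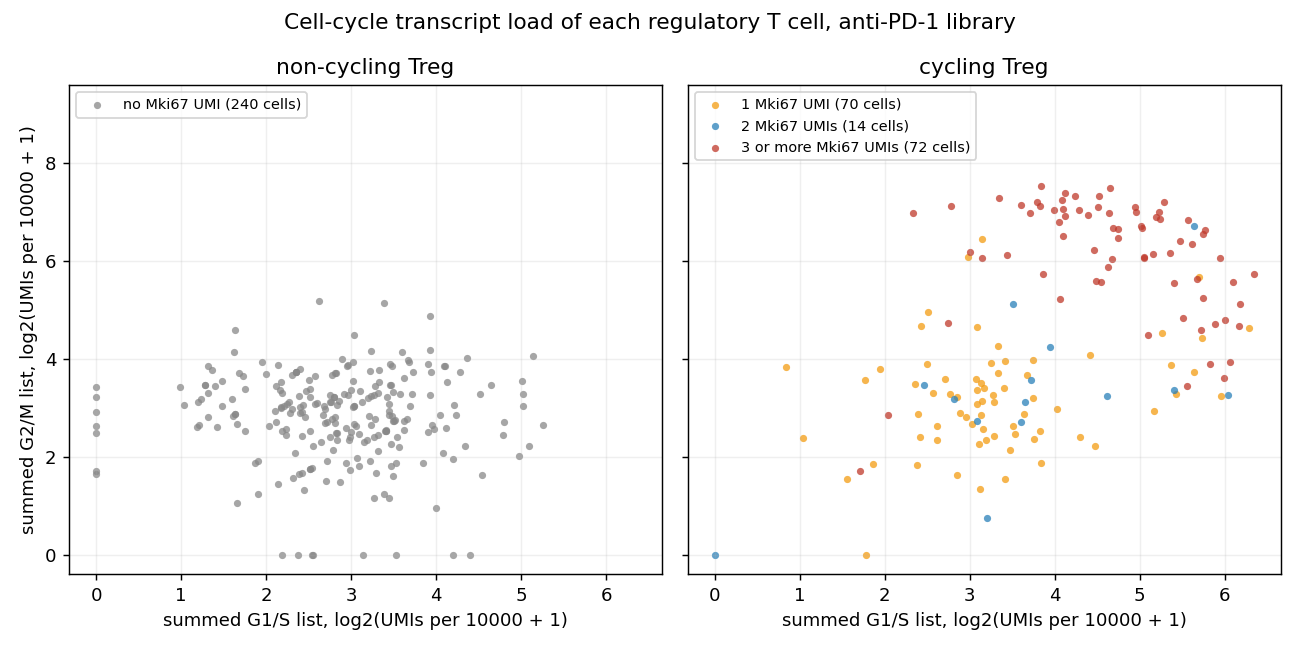
Each point is 1 regulatory T cell of the anti-PD-1 library, placed by its summed G1/S (x) and G2/M (y) levels as log2 of UMIs per 10000 plus 1. Most members with 1 Mki67 UMI lie among levels also seen in the 240 cells without Mki67, while most of the 72 members with 3 or more lie above them on the G2/M axis.

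Members were placed in 3 ranges by these sums, each divided by its mean over cycling regulatory and cycling CD8 T cells together. A list was called low under 0.5 of that mean. Cells not low for both lists were placed by the list with the higher divided sum. Both sums were low in 61 members (39.1%, 31.4 to 47.2), G1/S was the higher in 40 (25.6%, 19.0 to 33.2) and G2/M in 55 (35.3%, 27.8 to 43.3). These are ranges of a continuous score and not cell types, and 10, 8 and 9 cells of the 3 ranges lay within 20% of a cut. Of the 61 low cells, 51 had 1 Mki67 UMI, and their median depth was 6451 UMIs, against 13355.5 and 15608 in the other ranges. In the G1/S range 15 of the 40 cells had 1 Mki67 UMI, and in the G2/M range 4 of the 55. Among cycling CD8 T cells 32.6% were low for both (30.8 to 34.3), 36.6% higher for G1/S (34.8 to 38.4) and 30.9% higher for G2/M (29.2 to 32.6). The G1/S share was lower in the members, with intervals that do not overlap. Of the 240 cells without Mki67, 202 were low for both and 38 were not, 35 of them on the G1/S side.

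Against the non-cycling regulatory T cells, 1015 of 7419 genes (13.7%) were higher in the members by 1.5-fold or more and 413 (5.57%) were lower. A gene entered when at least 10% of the cells of either group had a UMI. Since Mki67 chose the groups, these counts describe the split and nothing is read from them as support. The median log2 ratio over all these genes was 0.04. Among cells of 5000 to 15000 UMIs (85 members and 154 non-cycling cells), 1108 of 7019 genes were higher and 461 lower, with 656 and 194 of them shared with the full comparison.

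All 32 G2/M genes were higher, with a median log2 ratio of 3.43. Ckap2, a spindle and centrosome protein, had the highest ratio of the list, with 148 UMIs in 56 of the members and 2 UMIs in 2 of the non-cycling cells. Its mean level was 0.583 against 0.00661, a log2 ratio of 6.46 (4.44 to 9.92). Pbk, a mitotic kinase outside the list, rested on 1 UMI in the non-cycling cells (6.35, 3.67 to 12.47). Nuf2, a kinetochore subunit, had a log2 ratio of 5.15 over 2 UMIs, and Depdc1a, Neil3 and Kif20a had 4.81, 4.44 and 4.42, also over 2 UMIs each. Ckap2l, Kif4 and Bub1, which serve the spindle, chromosome condensation and the spindle checkpoint, had 4.66, 4.47 and 4.28. Cdca5 (sororin), which holds sister chromatids together, had a mean level of 0.315 in the members and no UMI in the non-cycling cells, at least 16.9-fold higher against a floor of 3 UMIs over the group.

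Better counted genes gave the same picture with narrower intervals. Cenpf, a kinetochore protein, had 606 UMIs in the members and 20 in the others, and its mean level was 2.45 against 0.125 (log2 ratio 4.30, 3.60 to 5.09). Cenpf ran from 0 to 20.3 UMIs per 10000 across the members, with its median cell at 0 and 66 cells above 0. Top2a, the topoisomerase that untangles replicated DNA, was at 4.80 against 0.650 (2.88, 2.56 to 3.22), and 74 of the 240 cells without Mki67 had a Top2a UMI. Birc5 (survivin) and Ube2c, the ubiquitin-conjugating enzyme of the anaphase-promoting complex, had log2 ratios of 3.34 and 3.35. Smc4 of the condensin complex had the lowest ratio of the list, 0.90.

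Of 27 tested G1/S genes, 24 were higher and none lower, with a median log2 ratio of 1.71. Rrm2, the regulated subunit of ribonucleotide reductase, led the list at 1.19 against 0.0959 UMIs per 10000 (3.64, 2.85 to 4.55). Clspn, an adaptor of the replication checkpoint, had 3.28, the S-phase cyclin Ccne2 had 3.17, and the thymidylate synthase gene Tyms had 2.59 (2.08 to 3.15). The 3 genes short of 1.5-fold were Mcm6 (0.52), Slbp (0.53) and Cdt1 (0.24). Replication-dependent histones, whose RNAs are made in S phase and mostly lack a poly(A) tail, were higher in 24 of 27 tested, with a median of 2.03 and Hist1h1b at 3.34 against 0.441. All 10 tested transcription factors of the cycle were higher, among them E2f8 (4.73, on 1 UMI in the non-cycling cells), E2f7 (3.49), Foxm1 (3.35), E2f1 (1.85) and Tfdp1 (0.78).

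Promoters are shown for the genes leading the G2/M and G1/S lists and for the markers Mki67 and Myb, as the 250 bases before the annotated start, read on the gene's strand from the RefSeq promoter table (build GRCm38.p6). Capitals mark the matches to the E2F-type letters TTCCCGC or TTGGCGC, to the CHR letters TTTGAA or TTCGAA, and to CCAAT, on either strand.
Mki67, chr7:135716380-135716629, minus strand: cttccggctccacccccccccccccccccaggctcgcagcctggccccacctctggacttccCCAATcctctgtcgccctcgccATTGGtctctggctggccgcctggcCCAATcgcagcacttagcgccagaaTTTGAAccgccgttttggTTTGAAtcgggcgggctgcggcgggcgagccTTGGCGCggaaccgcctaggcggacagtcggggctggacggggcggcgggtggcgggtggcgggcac
Ckap2, chr8:22185820-22186069, minus strand: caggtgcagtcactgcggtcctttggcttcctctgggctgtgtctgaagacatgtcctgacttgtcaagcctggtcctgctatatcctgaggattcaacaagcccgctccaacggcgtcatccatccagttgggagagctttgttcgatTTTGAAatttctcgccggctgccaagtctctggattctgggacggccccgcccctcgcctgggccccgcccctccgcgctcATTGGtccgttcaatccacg
Rrm2, chr12:24708004-24708253, plus strand: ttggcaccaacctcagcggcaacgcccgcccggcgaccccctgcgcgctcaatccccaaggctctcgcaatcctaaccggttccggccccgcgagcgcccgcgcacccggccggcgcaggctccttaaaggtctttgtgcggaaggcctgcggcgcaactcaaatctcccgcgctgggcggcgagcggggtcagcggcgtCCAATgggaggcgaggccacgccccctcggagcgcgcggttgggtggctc
Myb, chr10:21160985-21161234, minus strand: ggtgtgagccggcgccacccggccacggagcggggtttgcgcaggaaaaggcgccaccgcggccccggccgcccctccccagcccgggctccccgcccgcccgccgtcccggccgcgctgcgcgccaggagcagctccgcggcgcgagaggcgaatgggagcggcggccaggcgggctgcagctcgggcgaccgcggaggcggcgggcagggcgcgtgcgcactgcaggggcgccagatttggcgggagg

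Mki67 held TTGGCGC at -67, TTTGAA at -116 and -98, and CCAAT at -188, -166 and -141, where positions count bases from the start and the match at -166 is on the other strand. Ckap2 held TTTGAA at -101 and CCAAT at -20 on the other strand, Rrm2 held CCAAT at -50, and Myb held none of the 5. Windows of 300 bases, which add the first 50 bases of the transcript, were then scanned for every gene. TTTGAA or TTCGAA was in 21 of 27 G2/M genes with a promoter in the table (77.8%), in 4 of 25 G1/S genes (16%) and in 19.4% of all 27025 promoters. CCAAT together with one of these was in 19 of the 27 G2/M genes (70.4%), in 3 G1/S genes (12%) and in 7.70% of all promoters. TTCCCGC or TTGGCGC was in 12 of 25 G1/S genes (48.0%), in 2 G2/M genes (7.41%) and in 6.93% of all promoters. A match is a run of letters and not a measured site.

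Of the 3 markers that the gate did not use, Prdx4 had the most UMIs. Prdx4 encodes the peroxiredoxin of the endoplasmic reticulum, which turns peroxide into disulfide bonds. It was found in 96 members, at 0, 1.04 and 6.73 UMIs per 10000 in the lowest, median and highest cell, and in 75 of the 240 non-cycling cells, whose median was 0 and highest 7.63. The 2 groups overlap over almost their whole range. Its mean level was 1.36 against 0.580 (log2 ratio 1.22, 0.87 to 1.59), and 0.735, 1.15 and 2.0 in members with 1, 2 and 3 or more Mki67 UMIs. With every cell thinned to 3000 UMIs, which leaves out 2 members and 8 non-cycling cells, 36.4% of the members and 14.7% of the non-cycling cells had a Prdx4 UMI, against 61.5% and 31.3% unthinned.

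Dnph1, a hydrolase that removes hydroxymethylated deoxynucleotides from the nucleotide pool and a known target of Myc, was at 0.180 (0.127 to 0.247) against 0.0446 (0.0177 to 0.0927), a log2 ratio of 2.01 (0.82 to 3.44). It rested on 56 UMIs in 37 members and 8 UMIs in 7 non-cycling cells. Members with 3 or more Mki67 UMIs held 51 of the 56 UMIs, and those with 1 held 2. None of the 61 members low for both cycle lists had a Dnph1 UMI, while the level was 0.307 in the G1/S range and 0.287 in the G2/M range. UMI counts also follow depth, with medians of 16699 UMIs at 3 or more Mki67 UMIs, 6907.5 at 1 and 6451 in the low range. The lack of a UMI in the low range thus does not show a level below that of the non-cycling cells. Thinned shares were 4.55% of the members and 1.29% of the non-cycling cells, which rest on few cells.

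Myb, a transcription factor that effector regulatory T cells need for their differentiation, was at 0.353 (0.271 to 0.452) against 0.170 (0.110 to 0.249), a log2 ratio of 1.06 (0.37 to 1.78). It was found in 47 members and 21 non-cycling cells, with the highest cells at 3.17 and 4.74, so the groups overlap fully. Unthinned, 30.1% of the members and 8.75% of the non-cycling cells had a Myb UMI, and after thinning the shares were 6.49% and 6.47%. The level per 10000 UMIs thus differed while the thinned share, which rests on few cells, did not, and no order is read from the share. Levels of 0.242, 0 and 0.529 were found in members with 1, 2 and 3 or more Mki67 UMIs.

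Penk, the precursor of enkephalin peptides that is also made by some tissue regulatory T cells, was at 4.78 against 2.58 (log2 ratio 0.89, 0.69 to 1.08). The difference rests on few cells, since 5 members held 55.7% of its 799 UMIs and the highest cell stood at 204 UMIs per 10000. In members with 3 or more Mki67 UMIs the level was 2.37 and the log2 ratio -0.12 (-0.35 to 0.11), and in those with 1 the level was 5.05. Their highest cells stood at 42.3 and 57.5. The 14 members with 2 averaged 15.8, but they include the cell at 204, so this mean rests mostly on 1 cell.

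Growth genes differed less than cycle genes. Of 21 tested genes of the Myc and nucleotide synthesis list, 6 were higher and none lower, with a median log2 ratio of 0.36. Ran, the GTPase of nuclear transport, was at 7.62 against 3.85 (0.99, 0.84 to 1.13) and Impdh2, an enzyme of guanine nucleotide synthesis, at 0.916 against 0.395 (1.21, 0.78 to 1.66). Myc itself had -0.26. In the endoplasmic reticulum folding list 3 of 17 were higher, namely Prdx4, Sdf2l1 (1.09, 0.67 to 1.52) and Creld2 (1.02, 0.35 to 1.72), a share near the 13.7% over all genes tested, and the stress factor Ddit3 was lower (-0.62). None of 12 other thiol redox genes passed 1.5-fold in either direction, and neither did any of 70 nuclear oxidative phosphorylation genes, 13 mitochondrial genes or 14 proteasome core genes. The glycolysis list had a median of 0.05, with Slc2a1, a glucose transporter, lower (-0.83).

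None of 11 regulatory T cell identity genes passed 1.5-fold across the Mki67 split, with a median of -0.18. Ikzf2 was at 11.1 against 12, Ctla4 at 9.30 against 10.3 and Il2ra at 2.53 against 2.66. In members with 3 or more Mki67 UMIs, 4 of the 11 were lower than in the non-cycling cells and none higher (median -0.43), against 15.5% lower over all genes of that comparison. The 4 were the inhibitory receptor Tigit (-1.38, on 13 UMIs), the folate receptor Izumo1r (1.26 against 2.98, -1.24), Lrrc32 (-0.82) and the co-receptor Nrp1 (-0.63). Of 25 effector genes 3 were higher (Penk, Irf4 at 0.66 and Havcr2 at 0.66) and 2 lower, close to the 13.7% and 5.57% over all genes tested. The lower ones were Il10, a suppressive cytokine (0.249 against 0.577, -1.21, -1.97 to -0.51), and the protease gene Gzmb. Il10 rests on few cells, with 14 members and 27 non-cycling cells holding a UMI and 5 cells holding 70.6% and 60.3% of its UMIs. Gzmb was at 7.53 against 11.4 (-0.59, -0.72 to -0.47), with a median cell of 2.50 in the members and 4.72 in the others and a highest of 167 and 156, so the groups overlap over their whole range. Tnfrsf4 (OX40) was at 16.4 against 23.6 (-0.52). Among 8 central and naive genes Lef1 (-1.09) and S1pr1 (-0.82), a transcription factor of naive T cells and the receptor for exit from tissue, were lower.

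Among genes found in at least 25% of the non-cycling cells, N4bp2l1 had the lowest ratio, -1.47 (-2.19 to -0.80), and the chemokine Ccl4 was at 2.89 against 6.58 (-1.19), with 5 cells holding 58.9% of its UMIs in the members and 50.8% in the others. Kbtbd11, Pld3, Arhgap25, Lgals3, Ecm1, Vsir, Rgs2 and Pgs1 ran from -0.97 to -0.87. Vsir encodes the checkpoint receptor VISTA (0.845 against 1.58, -0.90, -1.28 to -0.53), and Lgals3 encodes galectin-3. In the cytotoxic list 4 of 17 were lower and none higher, with Gzmc at -2.49 and Xcl1 at -0.73. Socs3, a brake on cytokine signalling, had -1.41 (-2.15 to -0.71), and Relb, an NF-kB subunit, -0.86 (-1.31 to -0.42). None of 14 interferon or 12 immediate early genes passed 1.5-fold, with medians of -0.13 and -0.36.

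**Figure D3:**
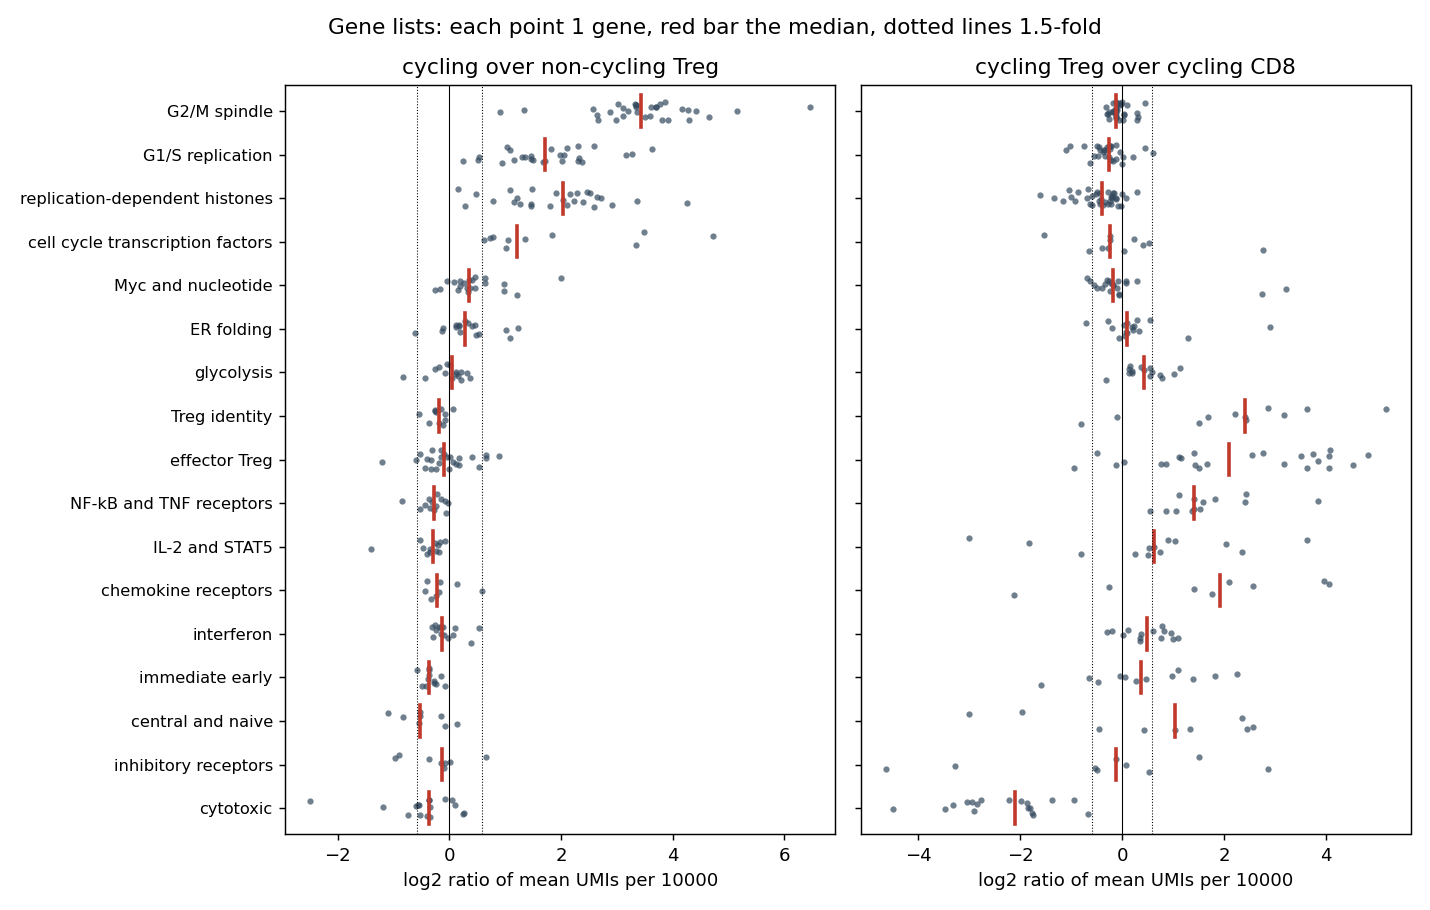
Log2 ratios of mean UMIs per 10000 for the genes of 17 lists, with each point 1 gene and the red bar the list's median; dotted lines mark 1.5-fold. The left panel sets cycling against non-cycling regulatory T cells and the right panel cycling regulatory against cycling CD8 T cells; the G2/M median is 3.43 on the left and -0.11 on the right.

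Ratios were also taken for members with 3 or more Mki67 UMIs and for members with 1, each against the same 240 non-cycling cells, so the 2 comparisons share their reference. With 3 or more, 1555 of 7920 genes (19.6%) were higher and 1231 (15.5%) lower; with 1, 886 of 6709 (13.2%) were higher and 484 (7.21%) lower. All 32 G2/M genes were higher with 3 or more (median 4.45), and with 1 UMI only 16 reached the detection minimum, of which 12 were higher (median 1.03). Genes found in under 10% of both groups are not in that median, such as Cenpf, found in 4 of these 70 members (-0.91). The sum over all 32 genes averaged 11.6 with 1 UMI and 7.40 in the non-cycling cells. All 28 tested G1/S genes were higher with 3 or more (median 2.44). With 1 UMI 17 of 23 tested G1/S genes were higher and 0 lower (median 0.77). The G1/S sum averaged 13.3 with 1 UMI and 8.05 in the non-cycling cells, so members with 1 UMI were not alike to these on the G1/S side. For the cytotoxic list the counts of lower genes were 16 of 17 with 3 or more and 2 of 17 with 1, and the medians -1.16 and 0.05. Gzmb was at 5.10 and 11.2 in these 2 sets of members and at 11.4 without Mki67. Immediate early genes were lower in 10 of 12 with 3 or more (median -1.01) and in none of 12 with 1 (median 0.16). Fos stood at 0.557, 1.98 and 2.13 in the same order. Effector genes were lower in 9 of 25 with 3 or more (median -0.47), and 7 of 24 were higher and 1 lower with 1 UMI (median 0.11). Areg, an epidermal growth factor family ligand that regulatory T cells use in tissue repair, was at 2.30, 3.93 and 4.02. Lag3, an inhibitory receptor, was at 0.814, 3.20 and 1.99. For interferon genes 6 of 13 were lower with 3 or more (median -0.53) and 4 of 15 higher with 1 (median 0.24). Ifit3 stood at 0.445, 1.63 and 0.868. Myc and nucleotide genes were higher in 11 of 21 with 3 or more and in none of 18 with 1.

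Levels were also read along the 3 ranges of the cycle sums, which were set from cycle genes of these same cells. Interferon gene Ifit1 was at 1.82 (1.38 to 2.37) in the members low for both lists, 0.579 in the G1/S range and 0.336 (0.198 to 0.533) in the G2/M range. It was found in 30 members, of which 5 held 41.7% of its UMIs, and the intervals do not cover this spread between cells. Prdx4 was at 0.434, 2.03 and 1.88 in the same order of ranges, and Myb at 0.229, 0.397 and 0.458. Gzmb was at 8.59, 9.68 and 4.80 and Areg at 4.10, 3.85 and 1.77, so both were at their lowest in the G2/M range. Ctla4 differed little, at 9.72, 9.85 and 8.44. Of effector transcripts, at least 1 UMI of Klrg1 was found in 88 members, Areg in 81, Penk in 67 and Ebi3 in 70, with Klrg1 and Areg together in 52 and Penk and Areg in 31. These counts depend on depth, since after thinning the share with Klrg1 went from 56.4% to 35.1% and that with Ebi3 from 44.9% to 20.8%.

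The same Mki67 split in CD8 T cells of the library (2749 cycling and 5056 non-cycling, with medians of 11464 and 6906.5 UMIs) was taken beside it. There 634 of 7279 genes (8.71%) were higher and 68 (0.934%) lower by 1.5-fold or more. Over 4048 genes found in at least 25% of the cells of a group in both lineages, leaving out the gate genes, the log2 ratios had a Pearson r of 0.894 and a Spearman rho of 0.639. This is a description across genes that are not independent, from 1 library and with the depth gap running the same way in both lineages. Of these genes 426 were higher in regulatory and 335 in CD8 T cells, and 282 were higher in both, which is most of each list. None was past 1.5-fold in opposite directions. None of the 67 lower in regulatory and 20 lower in CD8 T cells was shared. Lists this short among 4048 genes can fail to share a gene in any case, so nothing is read from this. The G2/M medians were 3.43 and 3.37, the G1/S medians 1.71 and 1.60, and the Myc and nucleotide medians 0.36 and 0.28. Prdx4 was higher in both lineages (1.22 and 0.92), from a level of 0.580 in non-cycling regulatory and 0.0957 in non-cycling CD8 T cells. Interferon genes were lower in 11 of 14 in CD8 T cells (median -0.65) and in none of 14 in regulatory T cells (median -0.13). The second value pools unlike members. With 3 or more Mki67 UMIs 6 of 13 were lower (median -0.53), and with 1 UMI 4 of 15 were higher (median 0.24). The difference between lineages was not tested. Isg15 was at 3.27 against 2.50 in regulatory and at 1.84 against 3.02 in CD8 T cells. In regulatory T cells it leans on few cells, with 5 members holding 34.3% of its UMIs and 5 non-cycling cells 30.9%. After thinning, 32.5% against 29.3% of regulatory and 22.6% against 30.0% of CD8 T cells had an Isg15 UMI.

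**Figure D4:**
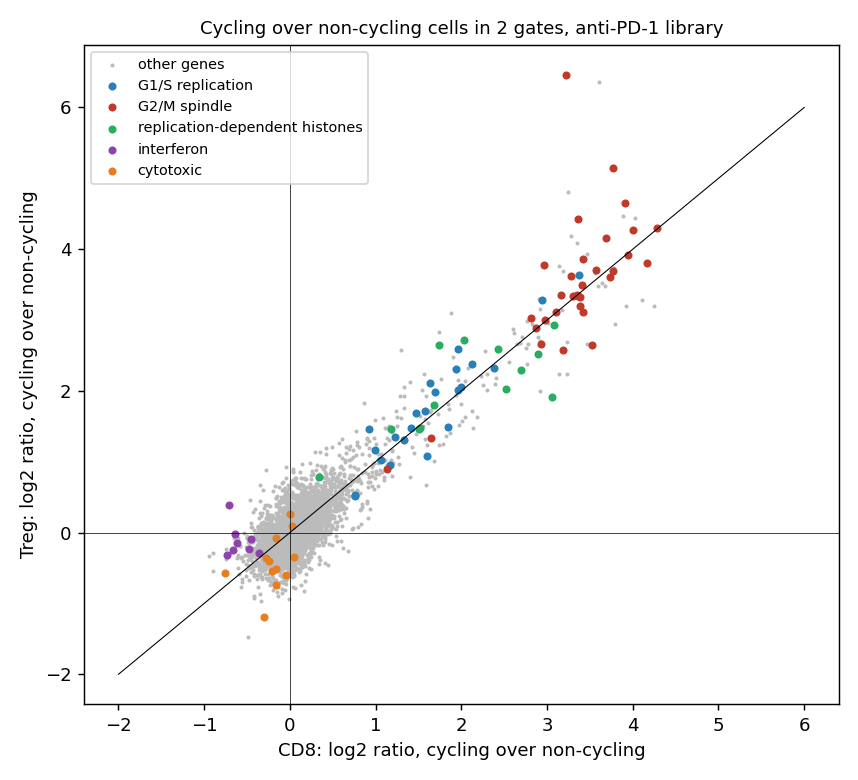
Each point is 1 gene, placed by its log2 ratio of cycling over non-cycling cells in CD8 T cells (x) and regulatory T cells (y) of the anti-PD-1 library, with the diagonal drawn. Shown are the 4048 genes compared in both lineages and the gate genes Cd3e, Cd8a and Cd8b1. G2/M and G1/S genes lie high on both axes, and the interferon genes lie left of 0 on the CD8 axis and around 0 on the other.

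With cycling CD8 T cells as the reference, the gate genes and their correlates chose the groups, so the counts describe lineage. There 1274 of 7823 genes (16.3%) were higher in the members and 658 (8.41%) lower. G2/M genes differed little, while some G1/S and histone genes were lower. None of 32 G2/M genes passed 1.5-fold (median -0.11, from -0.32 to 0.45), and 1 of 29 G1/S genes was higher and 4 lower (median -0.26). Cdc45, a subunit of the replicative helicase, was lower at 0.193 against 0.416 (-1.10, -1.63 to -0.62), as was Ung, a uracil glycosylase (-1.02). Of 36 histone genes 11 were lower and none higher (median -0.40). Of the 11 cycle transcription factors 1 was higher and 2 were lower. The higher one was Myb, at 0.353 against 0.0521 (2.76, 2.32 to 3.19), while Mybl2, its cell-cycle relative, was at 0.0460 against 0.132 (-1.53, -2.56 to -0.66).

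The 3 markers outside the gate were all higher than in cycling CD8 T cells. Prdx4 was at 1.36 against 0.181 (2.91, 2.67 to 3.14) and Dnph1 at 0.180 against 0.0193 (3.22, 2.57 to 3.85). After thinning, 6.49% of the members and 1.62% of cycling CD8 T cells had a Myb UMI, 36.4% and 5.40% a Prdx4 UMI, and 4.55% and 0.551% a Dnph1 UMI. The other folding genes lay near 0 on the log2 scale, with a list median of 0.09, and in that list only Xbp1, a factor of the unfolded protein response (1.29), was also higher.

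Among genes found in at least 25% of the members, Lrrc32 (GARP), which tethers latent TGF-beta to the surface, had the highest ratio at 0.434 against 0.0121 (5.16, 4.45 to 5.91), and Itgb8, the integrin chain that releases it, had 4.07. Ebi3, a chain of the cytokine IL-35, had 4.82, Cystm1 4.67, Penk 4.52 and the tetraspanin Cd81 4.37. Klrg1, a receptor of short-lived and tissue effector T cells, had 4.08, the transcription factor Maf 4.06, the transporter Slc15a3 4.02 and the invariant chain Cd74 3.88. Identity genes were higher in 9 of 11, with Il2ra at 3.62 (3.41 to 3.82), Ctla4 at 2.85 and Ikzf2 at 2.21, and Il2rb, the shared IL-2 receptor chain, lower at 2.92 against 5.13 (-0.81). Effector genes were higher in 20 of 24 with a median of 2.10. Among them Areg had 3.63, Icos 2.76 and Il1rl1, the IL-33 receptor, 3.74.

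Survival and signalling genes also differed from CD8 T cells. Bcl2, the anti-apoptotic protein, was lower at 0.444 against 3.56 (-3.00, -3.46 to -2.58). Of 13 NF-kB and TNF receptor genes 12 were higher, with Tnfrsf4 at 16.4 against 1.15 (3.84), Tnfrsf18 (GITR) at 12.6 against 2.36 (2.41) and the NF-kB inhibitor Nfkbia at 10.7 against 1.98 (2.43). Chemokine receptors Ccr8 (4.06), Ccr4 (3.96) and Ccr2 (2.09) were higher and Cxcr6 lower (-2.12). Odc1, the first enzyme of polyamine synthesis, was at 10.6 against 1.58 (2.74, 2.66 to 2.83) and did not differ by 1.5-fold within the gate (10.6 against 10.8). Interferon genes were higher in 7 of 14, with Isg20 at 1.10. All 18 tested cytotoxic genes were lower (median -2.10), including the pore protein Prf1 (-3.04), Gzma (-3.48) and Gzmb (7.53 against 14.5, -0.95). Cd244, an inhibitory receptor, had 3 UMIs in the members (-4.63, -7.67 to -2.78). Gm156, Gzmk, Tcrg-C2, Wdr95, Klre1, Atp8b4, Lrrk1, AC163354.1 and St3gal6 ran from -4.52 to -4.03, and Tcrg-C2 is the constant gene of a gamma chain that alpha-beta T cells can also transcribe.

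Cycling CD4 T cells without Foxp3 (247 cells, median 8768 UMIs) separate Foxp3 from CD4 lineage. In this comparison, added after the data had been seen, 807 of 7658 genes (10.5%) were higher in the members and 652 (8.51%) lower. At this depth a regulatory T cell without a captured Foxp3 UMI would fall in that group. Prdx4 was at 1.36 against 0.786 (0.79, 0.49 to 1.08), Myb at 0.353 against 0.108 (1.71, 0.99 to 2.49) and Dnph1 at 0.180 against 0.110 (0.70, -0.02 to 1.44), so of the 3 markers Dnph1 has an interval that reaches 0. Penk was the reverse of the CD8 comparison, at 4.78 against 13.6 (-1.51, -1.65 to -1.38). Identity genes were higher in 7 of 11 (median 0.76), led by Lrrc32 at 2.45, with Nrp1 lower (-1.14). Effector genes were higher in 13 of 24, with Klrg1 at 2.62 against 0.566 (2.21, 1.84 to 2.60), Itgae (CD103) at 2.29 and Areg at 1.88. The central and naive list was lower in 5 of 9, with Tcf7 at 0.0495 against 0.408 (-3.04, -4.54 to -1.84) and Lef1 at -1.27. Cytotoxic genes were lower in 12 of 18, and Gzmb was the 1 that was higher (7.53 against 3.64, 1.05). G2/M genes were higher in 12 of 32 (median 0.47) and G1/S genes in none of 29 (median -0.06).

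Markers of other cells were read in the same gates. The CD8 markers summed to 0.564 in the members, 0.583 in the non-cycling cells and 19.6 in cycling CD8 T cells. The 8 dendritic cell and class II genes summed to 6.01 in the members (0 to 103 across cells), 6.48 in the non-cycling and 0.562 in the cycling CD8 T cells. Cd74 made up 4.99 of the members' sum, and the dendritic genes Flt3, Xcr1 and Itgax had no UMI in the 156 members, which allows a level of up to 0.0150. The 3 B cell genes in the table summed to 2.78, 2.28 and 0.532. Ighm made up 2.58 of the first, and Cd79a was at 0.00790 on 1 UMI. Sums for 7 monocyte and macrophage genes were 0.776, 0.898 and 0.353, those for 5 epithelial genes 0.346, 0.370 and 0.137, those for 5 fibroblast genes 0.162, 0.221 and 0.146, and those for 4 erythroid genes 0.908, 1.08 and 0.643. The NK list summed to 0.331, 0.467 and 3.71 and the gamma-delta T cell list to 0.142, 0.264 and 1.78. The part of RNA from other cells in the Cd74 and Ighm differences was not tested.

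In the anti-PD-1 library 39.4% of the regulatory gate had Mki67 (34.6 to 44.4), against 35.2% of the CD8 gate (34.2 to 36.3) and 27.3% of CD4 T cells without Foxp3. Thinned to 3000 UMIs and gated anew, 25 of 150 regulatory T cells did (16.7%, 11.1 to 23.6), against 20.8% (19.8 to 21.8) in the CD8 gate and 14.8% in the CD4 gate. The regulatory and CD8 intervals overlap before and after thinning, so no order of the 2 shares is shown. The share with 3 or more Mki67 UMIs was 18.2% (14.5 to 22.3) in the regulatory and 17.3% in the CD8 gate.

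The other libraries gave 16 cycling and 1 non-cycling cell of the gate in vehicle, 9 and 8 in ATT-I, and 17 and 8 in the combination. The cycling share was 94.1% (71.3 to 99.9), 52.9% (27.8 to 77.0) and 68.0% (46.5 to 85.1), with 5, 1 and 4 cells left after thinning. The median depth of the cycling cells was 18637.5, 18356 and 27276 UMIs, above the 10271.5 of anti-PD-1, and the shares are not comparable at these depths and numbers. Treatment and library cannot be told apart.

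Marker levels in cycling cells were close between libraries for Prdx4, at 1.14 (0.753 to 1.66) in vehicle, 1.36 (1.18 to 1.55) in anti-PD-1, 1.24 (0.765 to 1.91) in ATT-I and 1.40 (1.10 to 1.75) in the combination. The 4 intervals overlap. The gates are unlike in make-up, though. Cells with 3 or more Mki67 UMIs were 15 of 16 in vehicle and 72 of 156 in anti-PD-1. They were 7 of 9 in ATT-I and 12 of 17 in the combination. In anti-PD-1 Prdx4 rose with the Mki67 count, so its closeness between libraries mixes in this difference. The levels of the other genes below do so too. Non-cycling cells were at 0.218 in ATT-I and 0.271 in the combination, below the cycling cells as in anti-PD-1. Dnph1 was at 0.142, 0.180, 0.445 and 0.254 in the same order of libraries, with intervals that overlap. Myb was at 0.574, 0.353, 0.119 and 0.698, and its combination interval (0.505 to 0.942) lies above that of anti-PD-1. Mki67 was at 12.6 in vehicle and between 5.32 and 5.80 in the others. Gzmb was at 3.33, 7.53, 6.66 and 2.36, so anti-PD-1 and ATT-I were the higher pair, and Tnfrsf4 at 7.91, 16.4, 10.1 and 14.0. In each of the 3 libraries with at least 8 cells on both sides, Tnfrsf4 and Gzmb were lower and Prdx4 higher in cycling cells, though the Gzmb intervals overlap in ATT-I and the combination and the Prdx4 intervals in ATT-I. Areg was at 0.237 in vehicle, at 3.21 in anti-PD-1, without a UMI in the 9 ATT-I cells and at 4.28 in the combination. Summed G2/M levels were 59.1, 46.6, 33.3 and 27 and summed G1/S levels 36.6, 21.9, 33.9 and 38.8.

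**Figure D5:**
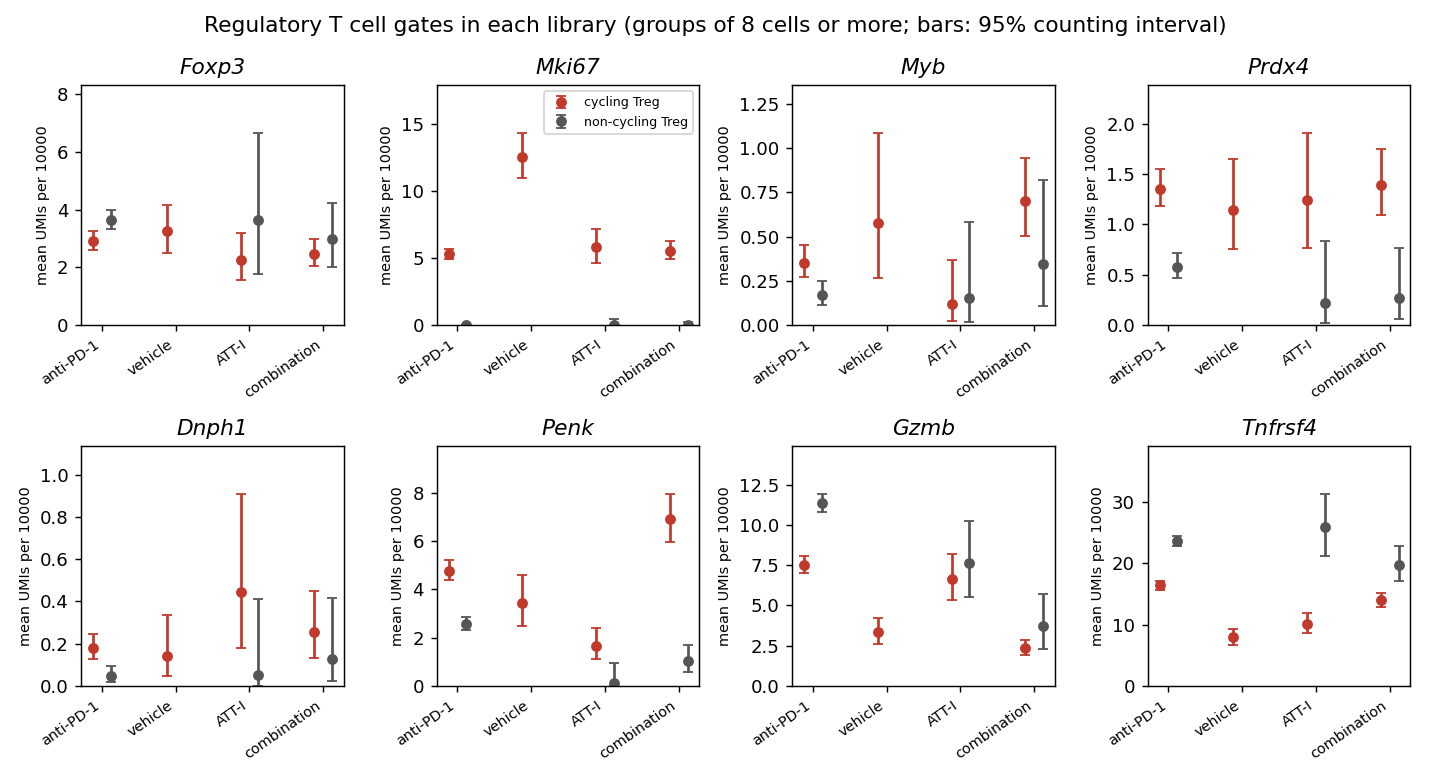
Mean UMIs per 10000 of 8 genes in cycling (red) and non-cycling (grey) cells of the regulatory T cell gate in each library, with exact 95% counting intervals, for groups of 8 cells or more. Prdx4 in cycling cells lies between 1.14 and 1.40 in all 4 libraries, while Gzmb lies between 2.36 and 7.53.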

How the data were processed

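Cell Ranger, Seurat and build mm10 were used per the submitters' processing notes; versions, parameters and cell filters are not given in the sources used here. The deposited values are natural log values, read as the natural log of 1 plus UMIs per 10000, less a library constant (0.247 vehicle, 0.249 anti-PD-1, 0.153 ATT-I, 0.225 combination), with values under 0 set to 0 by the authors. Undoing this gave whole UMIs for 100% of non-zero values within 0.02, which were checked and used for all levels. Genes with 1 UMI were set to 0 in 21, 37, 0 and 37 of the deepest cells, which were kept. Of the barcodes, 1 was found in 2 libraries. No doublet caller was run. Settings without the deepest 5% of cells and without cells holding Cd8a or Cd8b1 were run, but they are not a test for doublets. Columns were assigned to libraries by name.

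Levels, ratios without a pseudocount and exact intervals were computed with numpy 2.4.6, pandas 2.3.3 and scipy 1.17.1 under Python 3.11.15. The counting steps were tested on simulated data. Named genes are the 10 highest and 10 lowest log2 ratios among genes in at least 25% of cells of the higher group, without gate genes and sequence families, plus list examples. The members and lists were chosen with earlier results of these data known.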

Additional observations from a re-analysis of the deposited data

How the results depend on the processing

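Leaving out a replicate was not run, since each arm is 1 library. No paired analysis was possible because every arm has 1 library. Settings with 2 or 3 Mki67 UMIs, 1 Mki67 UMI, 2 Foxp3 UMIs or a minimum of 8 cells in other libraries were partly added after the data had been seen.

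Between cycling and non-cycling regulatory T cells, 1015 genes were higher and 413 lower. Without a filter on low genes the counts were 1986 and 1697, with a pseudocount of 0.1 UMIs per 10000 they were 547 and 141, and with 3 or more Mki67 UMIs they were 1555 and 1231. The lower count was 754 with a 5% filter, 694 from summed UMIs, 998 with 2 or more Mki67 UMIs and 661 with 2 or more Foxp3 UMIs. The share of higher genes among those past 1.5-fold was 71.1%, and 59.6% from summed UMIs, 53.9% without a filter, 59.0% with 2 or more Mki67 UMIs and 55.8% with 3 or more. From summed UMIs, 824 of the higher and 324 of the lower genes were shared with the main setting. Without the deepest 5% of cells the counts were 1067 and 373, with 963 and 352 shared. Without cells holding Cd8a or Cd8b1, 94 members and 168 non-cycling cells were left. The counts were then 1240 and 525, with 818 and 268 shared. Against cycling CD8 T cells the counts were 1274 and 658, and 2918 and 1524 without a filter or 792 and 311 with the pseudocount. The share of higher genes there was 65.9%, and 56.6% relative to the median gene.

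The cycling share of 39.4% was 16.7% after thinning, 21.7% with 2 or more Mki67 UMIs, 18.2% with 3 or more and 45.2% with Top2a in place of Mki67. It was 35.9% without cells holding Cd8a or Cd8b1. At a minimum of 10 cells on both sides 0 of the other libraries entered, and at 8 cells 2 did. Log2 ratios past 1.5-fold that turned sign were Penk with 3 or more Mki67 UMIs (-0.12), Cenpf and Dnph1 with exactly 1 (-0.91 for each), and the median of T cell receptor variable genes against CD8 T cells without a filter (0.35, from -3.11). Over all settings, 362 list medians within the gate stayed within 0.58 log2 of the reported value and 27 did not, while 383 ratios of named genes stayed inside the reported counting interval, 95 left it and another 3, past 1.5-fold as reported, turned sign. Against CD8 T cells 321 list medians stayed, 27 moved and 1 turned sign, while 289 ratios stayed and 85 moved. Each filter or Mki67 setting changes the genes or cells that enter, and any other cause of these shifts was not tested. The filter on low genes sets which genes enter and is no part of a single gene's ratio. Ratios of named genes under a changed or dropped filter therefore stayed by construction, in both comparisons. The setting relative to the median gene moves all ratios by the same small amount. The counts of ratios that stayed thus overstate how well they held. The number of UMIs limits genes such as Dnph1, Ckap2 and Pbk.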

Other observations

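Of the 4048 genes compared in both lineages, 2 had log2 ratios of cycling over non-cycling cells that stood at least 1 apart with opposite signs. Ppt1, a lysosomal thioesterase, had 0.88 in regulatory and -0.28 in CD8 T cells, and Daxx, a chaperone of histone variant H3.3, had 0.67 and -0.35. The differences between lineages were not tested.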
